A study of Mus musculus with 12 samples.

Results

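The genes described here, Ece2, Mllt3, Ifnar2, Pnkd, Armc9, Psd3 and Tor1aip2, are 7 of 24411 gene rows in the files and are grouped by an isoform-weighted length that shifted between groups. They were chosen on length differences seen in these same libraries, so their lengths are given as a description with no test. A gene's isoform-weighted length is the average length of its listed transcripts, each weighted by its estimated abundance. Such a length can move only where a gene has transcripts of more than 1 length: 5586 genes list more than 1 transcript, and 3422 of these, with all 7 genes among them, reached 50 expected counts in all 12 libraries and entered the length comparison.

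RNA was taken from lineage-negative, cKit-positive marrow cells of the leg bones, a fraction rich in stem and progenitor cells, in 4 groups of 3 libraries on the C57BL/6 strain. The donor marrow was CD45.2-positive and carried Mx1-Cre alone (control), Mx1-Cre with Inv(3) (the inv(3) group), Mx1-Cre with heterozygous Sf3b1-K700E (the K700E group), or Mx1-Cre with both alleles (the double group). All recipients were irradiated CD45.1-positive mice that also received wild-type CD45.1-positive support marrow, were given 20 mg/kg pIpC 3 times from 4 weeks after transplant, and were sampled 6 months after pIpC. Mx1-Cre is switched on by the interferon that pIpC induces, and it is active in blood cells and in other tissues. Whether donor cells were separated from support cells, and whether the 3 libraries of a group came from separate mice, is not stated in the labels used here. Support cells may therefore add wild-type RNA to every group, and p-values measure the spread between these libraries, which may be technical.

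SF3B1 is a subunit of the U2 snRNP, which binds the branch point of an intron, and its K700E change is known for the use of cryptic 3′ splice sites. In human leukaemia, inversions of chromosome 3 place the gene for the transcription factor EVI1 (MECOM) under a distant enhancer of GATA2. How the Inv(3) allele of these mice was built is not described here. A gene's length moves when a different first exon, last exon, splice site or polyadenylation site is used, and the encoded protein can change with it. RSEM, the program whose file format these data have, divides reads among listed transcripts only, so a splice site that the annotation does not list cannot be seen in these values.

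Libraries held 73074797 to 86555638 expected counts. The 8 stem and progenitor markers, Kit and Cd34 among them, were above 0 in every group, with summed levels of 2052 to 2134 CPM in control, 1719 to 1740 in inv(3), 2197 to 2260 in K700E and 1825 to 1907 in double libraries. Kit and Myb make up most of these sums. By edgeR 6 of the 8 passed as lower for inv(3) against control, 5 as lower for double against K700E and 5 as higher for double against inv(3). Hlf, a stem cell transcription factor, averaged 39.2 CPM (SD 4.64, 3 libraries) for control, 5.82 (SD 2.58) for inv(3), 51.5 (SD 5.05) for K700E and 17.9 (SD 3.81) for double, and Flt3, a receptor of early progenitors, 49.7 (SD 8.02) for control and 5.97 (SD 1.39) for inv(3); these 2 markers were picked out after their values were seen. Xist reached 1729 to 2014 CPM in the inv(3) libraries, and 4 Y-linked genes summed to 4 to 8 counts in inv(3) and to 19200 to 25380 counts in the others, so a comparison of inv(3) with control or with double also compares libraries that differ in sex-linked RNA. In the comparison of double with K700E both groups have Y-linked RNA, but Xist still differed without overlap, at 23.1 to 39.5 CPM in double against 80.2 to 222 in K700E (24.2 to 40.5 in control). The 10 macrophage markers, none at 0, summed to 347 to 431 CPM in control, 78.6 to 121 in inv(3), 467 to 643 in K700E and 66.1 to 85.1 in double. The 7 mature neutrophil markers, none at 0, summed to 1387 to 2058, 4243 to 5135, 1193 to 2260 and 2442 to 3569 CPM in the same order. In bulk RNA, fewer cells of a type and less RNA per cell cannot be told apart.

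Lengths fell into 2 patterns. In 6 of the 7 genes the length moved with Inv(3), in the same direction on both backgrounds: Ece2, Mllt3 and Armc9 were longer, and Ifnar2, Pnkd and Psd3 were shorter, with no overlap between libraries with and without the inversion in either comparison. The genes were chosen on length, and how many of all genes part in this way was not counted. Their number is therefore a description only. Tor1aip2 was shorter in the K700E libraries alone.

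**Figure D1:**
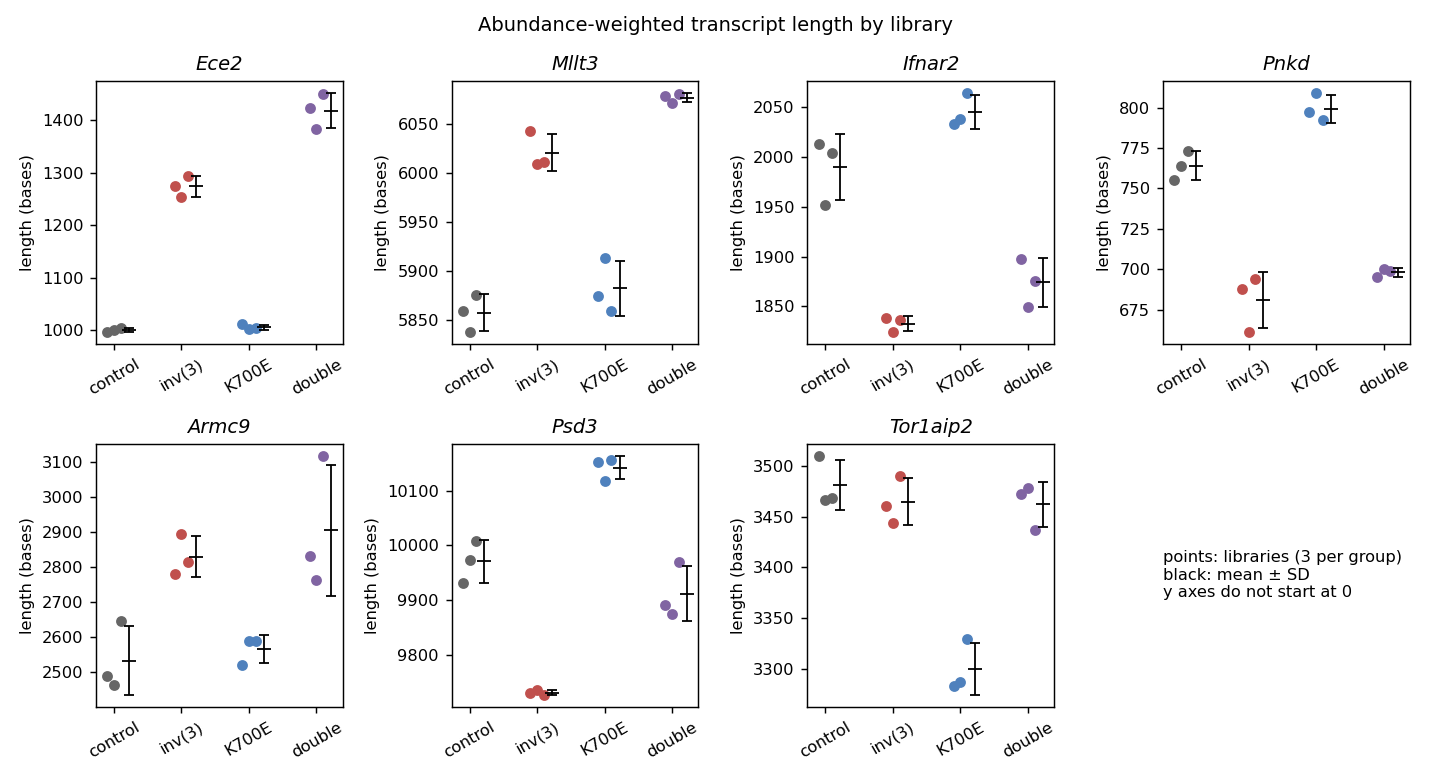
Isoform-weighted length in bases (y axis, one panel per gene, axes not starting at 0) in each of the 3 libraries of the 4 groups (x axis), with points for libraries and black marks for the group mean ± SD. Ece2 rises from 996 to 1011 bases in control and K700E to 1255 to 1450 in the groups with Inv(3), and Tor1aip2 is low, at 3283 to 3329 bases, in K700E alone.

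The transcripts that part the long from the short forms were taken from the GENCODE M21 annotation of GRCm38, the assembly also called mm10, in which all 23 transcripts listed for the 7 rows were found. They part in 3 ways. In Ifnar2, Armc9 and Tor1aip2 the short form reads on past a 5′ splice site that the long form uses, and ends there. The Tor1aip2 short forms of 2529 and 2589 bases also have a start of their own. In Ece2 and Pnkd a shared exon joins different next exons, and other long transcripts of both have a start of their own. In Mllt3 and Psd3 the forms differ in where they start, and some short forms also end earlier in the last exon.

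**Figure D2:**
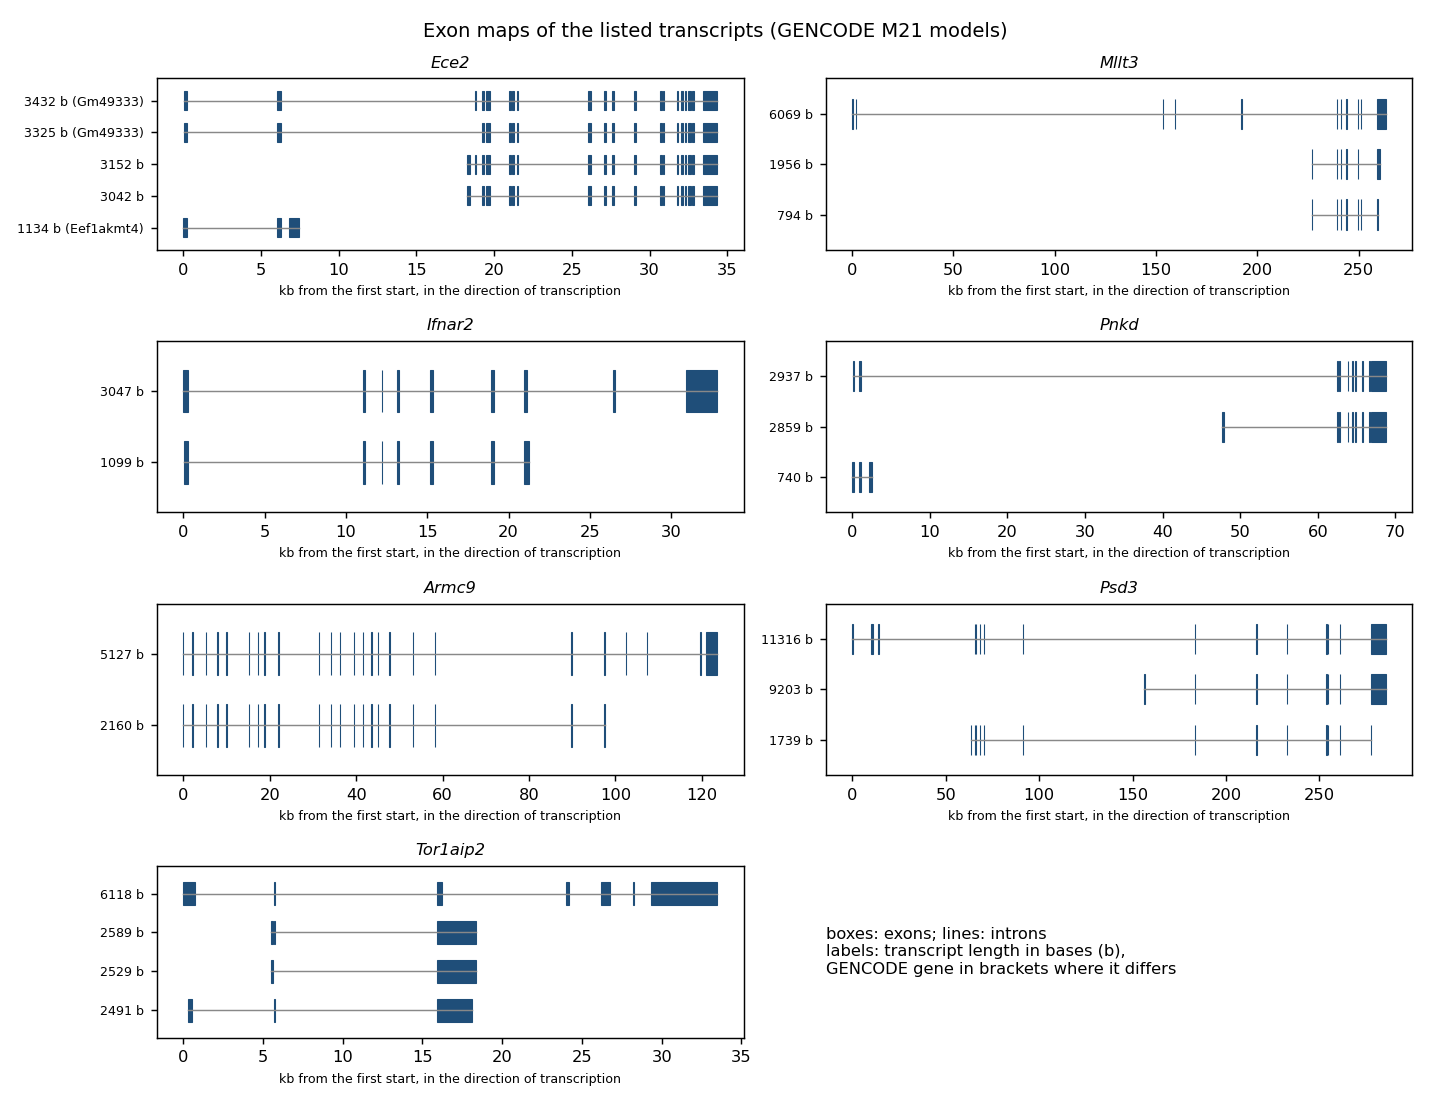
Exon maps of the transcripts listed for each of the 7 genes, drawn 5′ to 3′ with distance along the locus in kilobases (x axis); boxes are exons, thin lines introns, and each row is 1 transcript model labelled with its length. In Ifnar2, Armc9 and Tor1aip2 the short form ends early, while Mllt3 and Psd3, and also Ece2, Pnkd and Tor1aip2, have forms that start inside the locus.

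Ifnar2 encodes a chain of the type I interferon receptor. Its long form of 3047 bases holds the membrane-spanning and cytoplasmic parts (1539 coding bases), and its short form of 1099 bases (744 coding bases) is known to encode a soluble receptor that binds interferon without signalling. The gene lies at chr16:91372783-91405589 on the plus strand. The junctions are shown because they separate the forms: small letters end the shared exon at base 91393913, and capitals mark the bases that only that form has next, intron bases in the short form and the exon from base 91399218 in the long form.
Ifnar2 short form: gccaggaatcagGTATGGCTAGGT
Ifnar2 long form: gccaggaatcagGATTATCAGAAT

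Ifnar2 had lengths of 2013, 1952 and 2004 bases in control, 1838, 1824 and 1836 in inv(3), 2033, 2038 and 2064 in K700E, and 1898, 1849 and 1875 in double libraries 1 to 3. All 6 libraries with Inv(3) lay below all 6 without it. Within each background the K700E allele went with a longer average, and those groups did not overlap either. The log2 difference in effective length, the length less about 1 fragment, was -0.13 (SE 0.014) for inv(3) against control and -0.14 (SE 0.014) for double against K700E, ranks 8 and 12 by size among 3422 genes. It was 0.04 (SE 0.014) both for K700E against control and for double against inv(3).

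With 2 listed lengths, the average gives the share of each form. The long form made up 45.7% ± 1.68 (SD, n = 3) of Ifnar2 transcripts in control, 37.7% ± 0.391 in inv(3), 48.6% ± 0.862 in K700E and 39.8% ± 1.26 in double. These shares rest on GENCODE lengths, and of 18340 matched genes with a single listed transcript 73.8% had a GENCODE length within 5% of that in the files, so shares are approximate. In TPM, a level corrected for transcript length and library depth, the soluble form was at 45.9 ± 1.14, 54.3 ± 5.64, 43.1 ± 0.868 and 61.5 ± 3.56 in control, inv(3), K700E and double. The membrane form was at 38.7 ± 1.67, 32.9 ± 3.91, 40.7 ± 0.682 and 40.7 ± 4.48. In double against K700E the short form was higher in all 3 libraries, at 58.4 to 65.4 against 42.1 to 43.7, while the ranges of the long form, 36.5 to 45.4 and 40 to 41.4, overlapped. For inv(3) against control neither form overlapped. The short form was higher, at 48.6 to 59.9 against 44.9 to 47.2, and the long form lower, at 28.8 to 36.6 against 36.8 to 39.7.

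Armc9 encodes an armadillo-repeat protein of the base of the cilium, and its loss is known from Joubert syndrome. It lies at chr1:86154810-86278284 on the plus strand. Its short form has 2160 bases (1998 coding) and its long form 5127 (2451 coding). The last shared base is 86252392, and the long form goes on at 86257226.
Armc9 short form: agggtgcccagtGTAAGTTCGGGA
Armc9 long form: agggtgcccagtGCTAGGAGACCA

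Armc9 had lengths of 2489, 2465 and 2645 bases in control, 2780, 2895 and 2816 in inv(3), 2521, 2590 and 2590 in K700E, and 2833, 2763 and 3118 in double. The third control and the third double library stood above the other 2 of their groups. Even so, the 6 libraries with Inv(3) lay above the 6 without. The log2 difference in effective length was 0.17 (SE 0.046) for inv(3) against control and 0.19 (SE 0.046) for double against K700E, ranks 6 and 4. Armc9 was the gene with the fewest reads of the 7, at 372 to 546 expected counts per library.

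The long form was 12.6% ± 3.29 (SD, n = 3) of Armc9 transcripts in control, 22.6% ± 1.98 in inv(3), 13.7% ± 1.36 in K700E and 25.1% ± 6.34 in double. The short form was at 3.81 ± 0.116, 2.42 ± 0.0387, 3.88 ± 0.445 and 2.69 ± 0.325 TPM, lower in all libraries with the inversion. The long form was at 0.549 ± 0.148, 0.707 ± 0.0886, 0.613 ± 0.00853 and 0.896 ± 0.195 TPM, and its ranges in control (0.448 to 0.719) and inv(3) (0.639 to 0.807) overlapped. The shift of the average for inv(3) against control thus came with a lower level of the short form. For double against K700E the long form was also higher without overlap, at 0.723 to 1.11 against 0.608 to 0.622 TPM.

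Tor1aip2 covers 2 proteins with separate coding parts: the long form of 6118 bases (1506 coding) encodes LULL1, a membrane protein of the endoplasmic reticulum that activates the ATPase torsin A, and the short forms of 2491 to 2589 bases (393 coding) encode the small protein IFRG15. The coding part of the short forms spans chr1:156051878-156052270 and that of the long form starts at base 156059521, so the proteins share no codons. The gene lies at chr1:156035403-156068861 on the plus strand. The short forms of 2529 and 2589 bases start at base 156040917, the 2491-base form at 156035726 and the long form at 156035403. The average length therefore cannot tell a change of start from a change of 3′ end. The last shared base is 156051623, and the long form goes on at 156059411.
Tor1aip2 short form: tctgtgttgctaGTAAGTGACTGA
Tor1aip2 long form: tctgtgttgctaTCACTGTCTATA

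Tor1aip2 had lengths of 3510, 3466 and 3468 bases in control, 3460, 3444 and 3490 in inv(3), 3283, 3287 and 3329 in K700E, and 3472, 3478 and 3437 in double. The 3 K700E libraries lay below the other 9, and the other 3 groups overlapped one another. As a log2 difference in effective length, the shift was -0.08 (SE 0.009) for K700E against control, 0.07 (SE 0.009) for double against K700E, and 0.001 (SE 0.009) for double against inv(3). The difference between the effects of K700E on the 2 backgrounds was 0.08 (SE 0.012), rank 27 by size.

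The long form of Tor1aip2 was 26.4% ± 0.691 (SD, n = 3) in control, 25.9% ± 0.653 in inv(3), 21.3% ± 0.711 in K700E and 25.8% ± 0.623 in double. The short forms together were at 55.5 ± 1.63, 56.9 ± 2.21, 67.6 ± 2.92 and 60.6 ± 1.52 TPM, highest in K700E, where the range of 65.1 to 70.8 overlapped no other group. The long form, at 19.9 ± 1.3, 19.9 ± 0.994, 18.3 ± 1.03 and 21.1 ± 0.808 TPM, overlapped between K700E and control. K700E was also the group with the highest macrophage sum, given above, and the highest sum of 7 late erythroid markers, at 70.9 to 138 CPM against 18.5 to 22.4 in control, 20.7 to 45.9 in inv(3) and 47.5 to 71.7 in double. Hbb-bt made up most of the late erythroid sum in double, at 48.3 CPM against 8.19 in K700E. Of the macrophage markers, 8 of 10 passed the count test as higher in K700E against control, and of the late erythroid markers 4 of 7. Of 6 tested B-lymphoid markers 4 passed as higher there, and for double against K700E 5 passed as lower and 1 as higher. Xist was higher in K700E than in control and double, as given above. The part of these differences in the Tor1aip2 result was not tested.

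In all 3 of these genes the capitals of the short form open with GT, the first bases of nearly every intron, as they do where an exon runs on into its intron. The capitals of the Eef1akmt4 transcript and the long Pnkd form, shown further on, also open with GT, but these lie in exons.

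**Figure D3:**
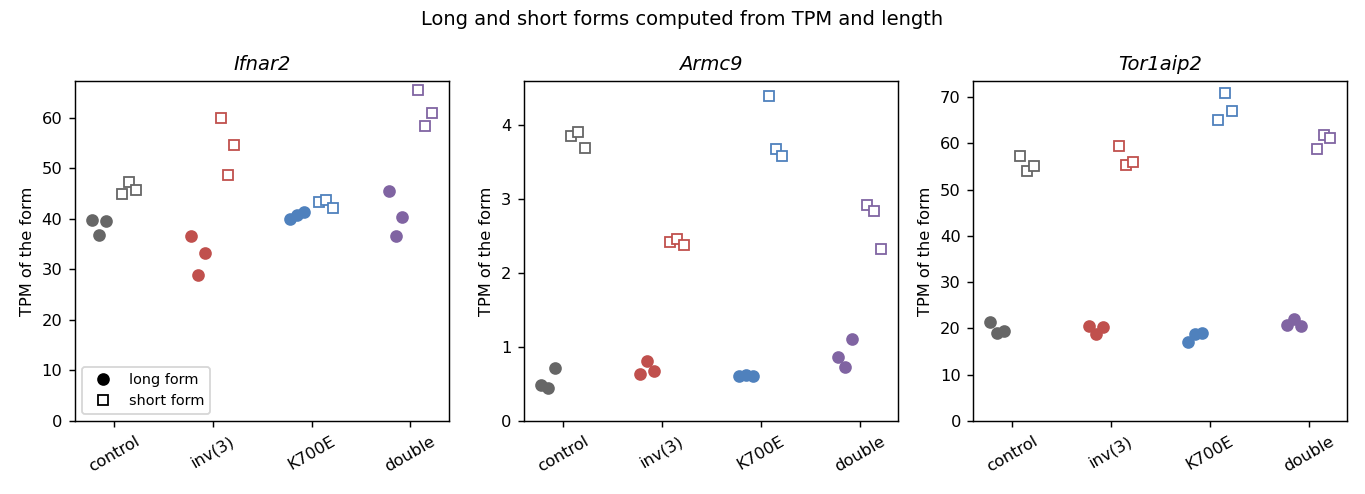
Level of the long and the short forms of Ifnar2, Armc9 and Tor1aip2 in TPM (y axis), from the total TPM of the gene and the share of each form, in each library of the 4 groups (x axis). Filled points are long forms and open squares short forms: short Armc9 is lower in every library with Inv(3), and short Tor1aip2 is highest in the K700E libraries.

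Ece2 is named for endothelin-converting enzyme 2, a membrane metallopeptidase that cuts the precursor of endothelin, but the row holds 5 transcripts of 2 neighbouring genes. One transcript of 1134 bases encodes Eef1akmt4, a lysine methyltransferase of the translation factor eEF1A. Transcripts of 3325 and 3432 bases join the start of Eef1akmt4 to the exons of Ece2, and transcripts of 3042 and 3152 bases start at Ece2 itself. The row spans chr16:20611593-20645920 on the plus strand. The junctions of 3 of the 5 transcripts show the choice. Base 20617909 of Eef1akmt4 joins its own next exon at 20618390 in the 1134-base transcript and the Ece2 exon at 20630352 in the 3432-base fusion, and the 3152-base transcript reaches that same Ece2 exon from 20630047. The 3325-base fusion and the 3042-base transcript skip that exon, and their junctions are not shown. Capitals mark the side of the junction by which a transcript differs from the fusion or, in the fusion, from the Eef1akmt4 transcript, so the capitals of the fusion are the small letters of the last line.
Eef1akmt4 transcript: gtgctgagtgagGTAAGCCGGTTG
Fusion transcript of 3432 bases: gtgctgagtgagATGGTGGAGTAC
Ece2 own start, 3152 bases: GGCGGAGGCAGTatggtggagtac

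The Ece2 row had lengths of 996, 1001 and 1004 bases in control, 1275, 1255 and 1295 in inv(3), 1011, 1002 and 1004 in K700E, and 1423, 1383 and 1450 in double. Control and K700E overlapped at about the length of the Eef1akmt4 transcript. Inv(3) libraries were all longer, and double libraries longer still, with no overlap. On the log2 scale of effective length the difference was 0.41 (SE 0.020) for inv(3) against control and 0.58 (SE 0.020) for double against K700E, rank 1 of 3422 in both. It was 0.18 (SE 0.020) for double against inv(3), rank 3, and 0.01 (SE 0.020) for K700E against control, and the difference between these (double less K700E less inv(3) plus control) was 0.17 (SE 0.029), rank 4.

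Since 5 lengths cannot be resolved from 1 average, the smallest share of transcripts with Ece2 exons that could give each length was taken, on the longest listed length and the lowest length observed. It was 0.176% ± 0.163 (SD, n = 3) in control, 11.5% ± 0.829 in inv(3), 0.397% ± 0.187 in K700E and 17.4% ± 1.4 in double. The lowest library is 0 by construction, because the observed 996 bases lie under the 1134 of GENCODE. Reads of a fusion and of the 2 separate genes overlap, and which of the 4 transcripts with Ece2 exons rose could not be read from these files.

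Pnkd encodes a hydrolase of the metallo-beta-lactamase fold, known from paroxysmal dyskinesia, in its long forms of 2859 bases (1080 coding) and 2937 bases (1155 coding). A short form of 740 bases (426 coding) keeps the first exons and ends early, without the exons that encode the hydrolase. The gene lies at chr1:74284930-74353686 on the plus strand. The 2859-base form starts at base 74332610 with a first exon of its own and shares no exon with the short form. Which of the long forms changed could not be read from the average. From the shared base 74286010 the short form joins the exon at 74287092 and the 2937-base form the exon at 74347385.
Pnkd short form: ggggctagcctgGGCCATCGGCTT
Pnkd long form: ggggctagcctgGTATAGCCTGTA

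Pnkd had lengths of 755, 764 and 773 bases in control, 688, 661 and 694 in inv(3), 797, 809 and 792 in K700E, and 695, 700 and 699 in double. The order of groups was inv(3), double, control, K700E, and no 2 groups overlapped, though inv(3) at 694 bases and double at 695 nearly met. The log2 difference in effective length was -0.23 (SE 0.027) for inv(3) against control and -0.25 (SE 0.027) for double against K700E, ranks 3 and 2. It was 0.09 (SE 0.027) for K700E against control and 0.06 (SE 0.027) for double against inv(3), and the last was 0.02 without the second inv(3) library, the shortest of the 12. The fragment length taken off to give effective length varied from 162.5 to 176.9 bases over libraries, which weighs most in short transcripts, and on the uncorrected length the 2 shifts with Inv(3) were -0.167 and -0.196. The smallest share of long forms that fits the average was 4.54% ± 0.4 (SD, n = 3) in control, 0.876% ± 0.77 in inv(3), 6.1% ± 0.387 in K700E and 1.64% ± 0.118 in double, again with the shortest library at 0 by construction. Most Pnkd transcripts in these cells were thus of the short form.

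Mllt3 encodes AF9, a reader of acylated histones in the super elongation and DOT1L complexes, known as a fusion partner of MLL in leukaemia and as a factor that maintains haematopoietic stem cells. The full-length form has 6069 bases (1707 coding), and forms of 1956 bases (414 coding) and 794 bases (486 coding) start inside the gene. Their last exon also ends earlier, at 260.691 and 259.448 kb from the first start, against 263.439 kb in the full-length form. The average length therefore cannot tell a change of start from a change of 3′ end. The gene lies at chr4:87769925-88033364 on the minus strand. The exon from base 87794011 is reached from 87840682 in the full-length form and from 87806211 in a short form, and capitals mark the upstream exon.
Mllt3 full length: TCGAAATCTGACtcagagcaaccc
Mllt3 internal start: GGTCTCAAGGAGtcagagcaaccc

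Mllt3 had lengths of 5859, 5837 and 5875 bases in control, 6043, 6009 and 6011 in inv(3), 5874, 5913 and 5859 in K700E, and 6079, 6072 and 6081 in double. Control and K700E overlapped, and every library with Inv(3) was above them. In log2 effective length the difference was small, 0.04 (SE 0.004) for inv(3) against control and 0.05 (SE 0.004) for double against K700E, ranks 85 and 69. The smallest share of forms from the internal start was 4.25% ± 0.359 (SD, n = 3) in control, 1.14% ± 0.362 in inv(3), 3.77% ± 0.526 in K700E and 0.0769% ± 0.0957 in double, with the longest library at 0 by construction. The full-length form was the bulk of Mllt3 in every group.

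Psd3 encodes an exchange factor that loads GTP on ARF6, a small GTPase of membrane recycling. Its longest form has 11316 bases (3012 coding), a form from an internal start 9203 bases (1128 coding), and another form 1739 bases (1554 coding). The last exon of the 1739-base form ends at 277.693 kb from the first start, against 285.492 kb in the longest form. The gene lies at chr8:67689082-67974574 on the minus strand. The exon from base 67790941 is reached from 67882981 in the longest form, and also in the 1739-base form, and from 67817948 in the 9203-base form, so these junctions set apart the 9203-base form only.
Psd3 longest and 1739-base forms: GATCTTCTGAAAgctctgtacaac
Psd3 9203-base form: AAGGAGAGCAAGgctctgtacaac

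Psd3 had lengths of 9931, 9973 and 10008 bases in control, 9731, 9736 and 9727 in inv(3), 10153, 10117 and 10156 in K700E, and 9892, 9874 and 9969 in double. Inv(3) libraries were the shortest and K700E libraries the longest, each apart from all others, while control and double overlapped. On the same scale the log2 difference in effective length was -0.036 (SE 0.004) for inv(3) against control and -0.034 (SE 0.004) for double against K700E, and 0.025 (SE 0.004) for K700E against control and 0.028 (SE 0.004) for double against inv(3). The smallest share of the longest form was 36.3% ± 1.84 (SD, n = 3) in control, 25% ± 0.207 in inv(3), 44.5% ± 1.02 in K700E and 33.5% ± 2.4 in double. The 2 alleles thus went with opposite shifts in Psd3, as in Ifnar2 and Pnkd.

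Over the 3422 genes, limma passed few length differences at an adjusted p of 0.05, the rule by which a gene is counted as called: 0.263% (9 genes) for inv(3) against control, 0.526% (18 genes) for double against K700E, and 0.0292% (1 gene) each for K700E against control and for double against inv(3). For the difference between the effects of K700E on the 2 backgrounds limma called 0 genes, with 145 at an unadjusted p under 0.05. The 7 genes were chosen on these differences, so their own calls are not given and nothing about them is read from these shares.

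Counts of the same genes were tested with edgeR's quasi-likelihood test and Benjamini-Hochberg adjustment over 13755 genes; counts and lengths come from the same libraries and the same estimation. With Inv(3), Ece2 counts rose and Mllt3 and Psd3 counts fell on both backgrounds. For K700E against control none of the 7 passed, against 8.84% of all genes (3.94% higher and 4.9% lower). That background rests on single libraries: the 1216 genes called were 600, 214 or 560 without control library 1, 2 or 3 and 168 without K700E library 2. For inv(3) against control 2 of the 7 rose and 2 fell, where 38.7% of all genes passed (18.4% higher and 20.3% lower). For double against K700E 2 rose and 3 fell, where 49.2% passed (25.7% higher and 23.5% lower), and for double against inv(3) 3 rose and 0 fell, where 22.6% passed (13.4% higher and 9.13% lower; 3103 genes, which were 1671 or 1566 without double library 1 or 3). With 7 genes, none of these shares is read as different from the background.

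Ece2 stood at 17.4, 17.3 and 19.3 CPM in control, 23, 26.5 and 24.9 in inv(3), 18, 17.4 and 17 in K700E, and 31.1, 31.4 and 31 in double. The groups with Inv(3) were above those without, and double above inv(3). The log2 fold change was 0.54 (SE 0.063, adjusted p = 5.6e-05) for inv(3) against control, 0.92 (SE 0.064, adjusted p = 7e-07) for double against K700E and 0.28 (SE 0.063, adjusted p = 0.0087) for double against inv(3). A longer transcript gives more reads at the same number of molecules, so the fit was repeated with each library's effective length as an offset, which tests the level per length. Per length, the log2 fold changes of Ece2 were 0.13 (adjusted p = 0.16), 0.34 (adjusted p = 0.0015) and 0.10 (adjusted p = 0.3), so only the comparison of double with K700E of these 3 passed on both scales. The TPM was 37 ± 2.12 (SD, n = 3) in control, 37.5 ± 2.54 in inv(3), 35.9 ± 0.65 in K700E and 42.8 ± 1.3 in double.

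Mllt3 stood at 18.6, 18.2 and 19.8 CPM in control, 9.84, 8.39 and 9.67 in inv(3), 21.6, 28 and 22 in K700E, and 14, 11.7 and 13.8 in double. Every library with Inv(3) was below every one without, and double lay above inv(3). The log2 fold change was -0.95 (SE 0.103, adjusted p = 3.3e-05) for inv(3) against control, -0.77 (SE 0.102, adjusted p = 8.2e-05) for double against K700E and 0.46 (SE 0.103, adjusted p = 0.0092) for double against inv(3). For K700E against control it was 0.28 (SE 0.101, adjusted p = 0.11). Mllt3 was thus lower and longer with the inversion, and per length its log2 fold changes, -0.99 and -0.82, were little different.

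Psd3 stood at 37.4, 35 and 33.2 CPM in control, 23.2, 16.4 and 21.8 in inv(3), 31.2, 37.9 and 37.1 in K700E, and 28.5, 27.2 and 25.9 in double. Inv(3) was lowest, and double lay between it and the others without overlap. The log2 fold change was -0.71 (SE 0.113, adjusted p = 0.00047) for inv(3) against control, -0.29 (SE 0.112, adjusted p = 0.047) for double against K700E and 0.37 (SE 0.113, adjusted p = 0.037) for double against inv(3). The last 2 did not pass per length, at adjusted p = 0.076 and 0.053, nor without some single libraries, where adjusted p reached 0.13 and 0.11.

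Ifnar2 stood at 90.5, 87.6 and 91.7 CPM in control, 94.6, 77.9 and 88.2 in inv(3), 91.3, 91.3 and 91.4 in K700E, and 112, 93.1 and 100 in double. Double was above K700E in all 3 libraries, and inv(3) and control overlapped. The log2 fold change was 0.24 (SE 0.067, adjusted p = 0.011) for double against K700E and 0.38 (adjusted p = 0.00036) per length, and 0.02 (SE 0.067, adjusted p = 0.8) for inv(3) against control. Without double library 1 the first was 0.17 (adjusted p = 0.057). Reads of Ifnar2 in inv(3) were thus close to control while the average transcript was shorter.

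Pnkd stood at 9.91, 11.9 and 12.9 CPM in control, 8.81, 8.93 and 9.7 in inv(3), 13.7, 12.2 and 10.8 in K700E, and 10.2, 8.77 and 8.74 in double. The log2 fold change was -0.32 (SE 0.111, adjusted p = 0.033) for double against K700E, which per length was -0.07 (adjusted p = 0.63), and it missed the threshold without some single libraries (adjusted p up to 0.12). For inv(3) against control it was -0.26 (SE 0.112, adjusted p = 0.081).

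Armc9 stood at 5.82, 5.85 and 6.38 CPM in control, 4.7, 5.42 and 4.87 in inv(3), 6.89, 6.01 and 5.86 in K700E, and 5.87, 5.4 and 5.86 in double. No comparison of its counts passed, and for inv(3) against control the log2 fold change was -0.19 (SE 0.099, adjusted p = 0.14). Per length it was -0.37 (adjusted p = 0.011), with a TPM of 4.36 ± 0.0361 (SD, n = 3) in control and 3.12 ± 0.118 in inv(3). Armc9 is the gene of the 7 for which the inv(3) call was made per length alone.

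Tor1aip2 stood at 152, 141 and 144 CPM in control, 155, 148 and 153 in inv(3), 150, 161 and 157 in K700E, and 153, 162 and 155 in double. The log2 fold change was 0.04 (SE 0.046, adjusted p = 0.59) for K700E against control, where its length differed, and 0.125 per length (adjusted p = 0.096). For inv(3) against control it was 0.13 (SE 0.046, adjusted p = 0.039), a call that ended in several other settings, with adjusted p up to 0.15. The difference between the 2 backgrounds passed for none of the 7 by edgeR, against 0.836% of all genes (115, with 32 to 323 when single libraries were left out), and was largest in Psd3 (0.42, SE 0.158, adjusted p = 0.22) and Ece2 (0.38, SE 0.089, adjusted p = 0.073), which passed by DESeq2 (adjusted p = 0.011).

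**Figure D4:**
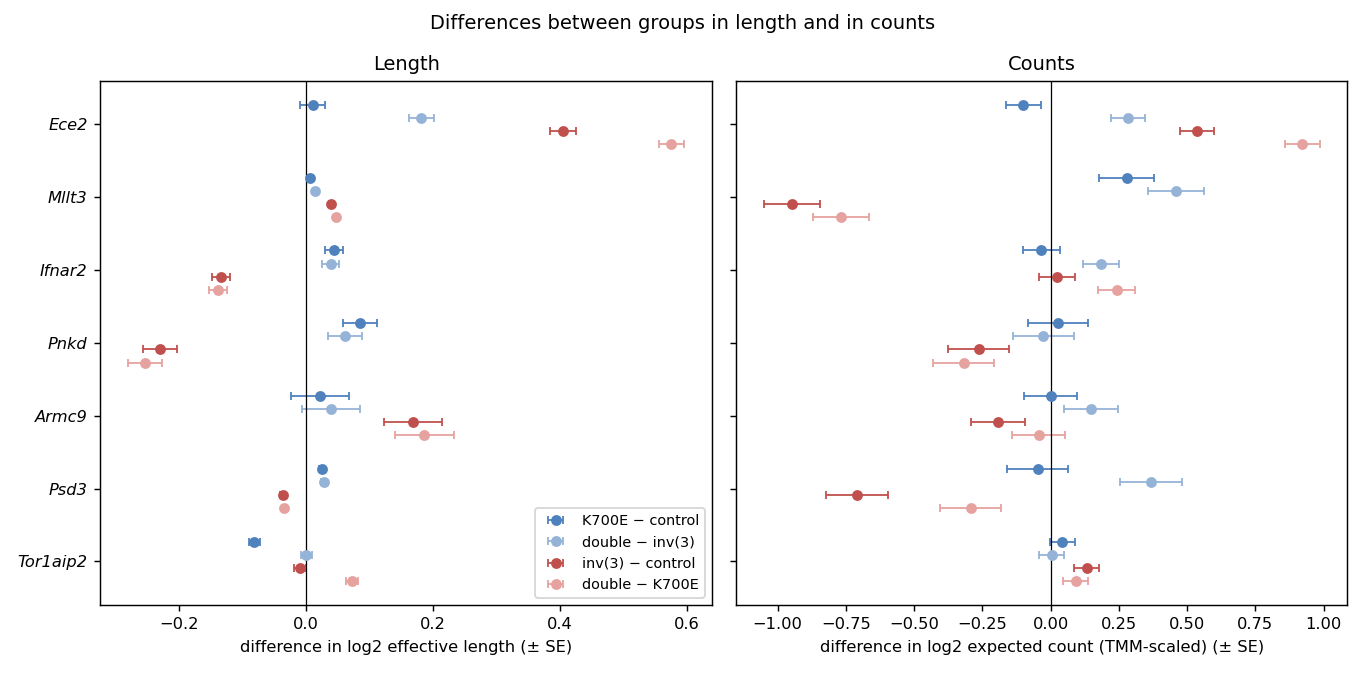
Differences between groups for the 7 genes, with log2 effective length on the left and log2 expected count on the right (x axes, points with bars of 1 SE), for 4 comparisons. Ece2 is furthest to the right in length for double less K700E (0.58), and Mllt3 furthest to the left in counts for inv(3) less control (-0.95).

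**Figure D5:**
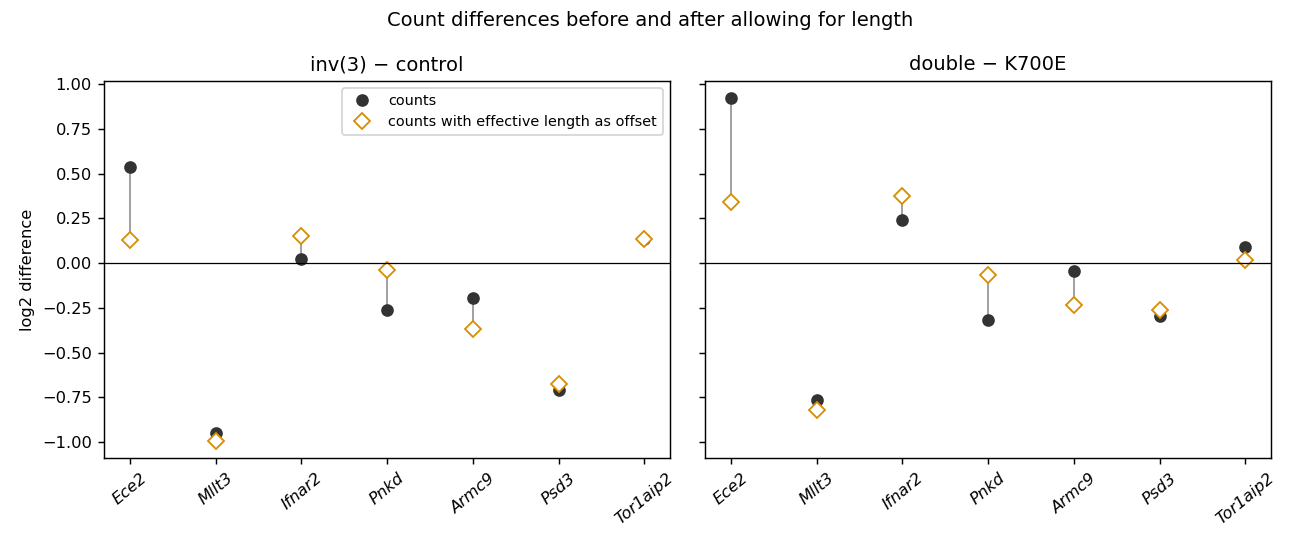
Log2 difference (y axis) of the 7 genes (x axis) for inv(3) less control on the left and double less K700E on the right, with filled points for counts and open diamonds for the fit with effective length as offset. The Ece2 difference is smaller per length (0.92 in counts against 0.34 for double less K700E), that of Pnkd moves toward 0, and those of Ifnar2 and Armc9 move away from it.

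Relatives of the 7 genes were read from lists of known partners. For K700E against control, where 8.84% of all genes passed, a share that leaving out 1 library can lower to 168 genes, no member of any list rose. Sun2, which links the nuclear envelope to the cytoskeleton, fell by 0.50 on the log2 scale (adjusted p = 0.0079 by edgeR), and Tor1a, torsin A itself, fell by 0.20 (adjusted p = 0.014); 3 of 14 torsin and nuclear envelope genes fell in all, with a list median of -0.1 against -0.005 for all genes. Of the ARF6 exchange factors and ARF genes 3 of 10 fell (median -0.107), among them Cyth1 (-0.30, adjusted p = 0.015) and the Psd3 relative Psd4 (-0.19, adjusted p = 0.02). Of 18 MLLT3 partners 1 fell, Aff1 of the super elongation complex (-0.33, adjusted p = 0.014), and 1 of 8 glyoxalase and MBL-fold hydrolases, Hagh (-0.22, adjusted p = 0.039). None of 9 interferon receptor and signalling genes, of 5 endothelin and M13 peptidases or of 8 ciliary partners of ARMC9 passed.

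For double against inv(3), where 22.6% of all genes passed, 3 of 9 interferon receptor and signalling genes rose, among them Ifnar1, the other chain of the receptor (0.24, adjusted p = 0.026 by edgeR), and Irf9, which carries the signal to DNA (0.29, adjusted p = 0.013). Of the MLLT3 partners 5 of 18 rose and 1 fell, with Aff3 (0.85, adjusted p = 0.0017) and Bcor (0.25, adjusted p = 0.0054) among those that rose. Of 8 ciliary partners 4 rose, with Ccdc66 (0.21, adjusted p = 0.014) and Ift88 (0.25, adjusted p = 0.021) the first, and 1 of 5 endothelin and M13 peptidases, Ece1 (0.37, adjusted p = 0.033). Of 14 torsin and envelope genes 1 rose and 2 fell, Syne1 (-0.74, adjusted p = 0.0073) and Sun2 (-0.37, adjusted p = 0.011). Of 10 ARF6 genes 2 fell, Arf1 (-0.16, adjusted p = 0.028) and Cyth3 (-0.41, adjusted p = 0.04), and of 8 hydrolases 1 rose and 2 fell, Mblac1 (-0.44, adjusted p = 0.044) and Hagh (-0.22, adjusted p = 0.019). The calls of Hagh against control, Mblac1 and Cyth3 ended in 12 of 20, 11 of 19 and 11 of 19 other settings. Those of Ece1, Ifnar1 and Arf1 ended in 6, 5 and 5 of 19. Of the partners named in both comparisons, only Aff3, Bcor, Syne1 and Sun2, for double against inv(3), kept their call in every setting.

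With Inv(3), 38.7% and 49.2% of all genes passed for inv(3) against control and double against K700E, and the lists moved as follows. Of the 9 interferon receptor and signalling genes 4 rose and 0 fell on the control background, and 5 rose and 1 fell on the K700E background, with list medians of 0.32 and 0.32 against 0.003 and 0.025 for all genes. Of the 5 endothelin and M13 peptidases 3 fell and 0 rose in both. Torsin and envelope genes had 6 of 14 higher and 2 lower in both, and ARF6 genes 4 and then 5 of 10 higher with 1 lower. MLLT3 partners had 3 higher and 3 lower of 18, and then 6 and 3, hydrolases 3 and 1 of 8, and then 3 and 3, and ciliary partners 0 and 1 of 8, and then 3 and 0.

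Genes whose length followed that of the 7 most closely were looked for by Pearson's r of log2 effective length over the 12 libraries among 3415 other genes, as a description only, since libraries of 1 group share their genotype. Mecom, the mouse gene for EVI1, came first for Ece2 (r = 0.95), Mllt3 (r = 0.962) and Armc9 (r = 0.864). Its length was 3731 ± 42.1 bases (SD, n = 3) in control, 4383 ± 12.1 in inv(3), 3873 ± 71.3 in K700E and 4402 ± 24 in double. Whether RNA of the Inv(3) allele itself adds to the Mecom values was not tested. Ugp2 came first for Ifnar2 (r = 0.923) and Pnkd (r = 0.944), over a range of only 0.02 in log2 length, and Ppp1r18 for Psd3 (r = 0.921). For Tor1aip2 the 2 nearest were Serpinb6a (r = 0.892) and Abcc5 (r = 0.85), whose length was 4484 ± 121 bases in control, 4584 ± 195 in inv(3), 4055 ± 73 in K700E and 4556 ± 76.1 in double. Among the 7, Ece2 and Mllt3 were nearest (r = 0.979), then Ifnar2 and Pnkd (r = 0.959), and Tor1aip2 had r of -0.723 to 0.441 with the others.

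The 6 shifts with Inv(3) moved together with markers of several cell types. Summed levels of macrophage markers were lower and of neutrophil markers higher in both groups with the inversion. Vcam1 was the largest part of the macrophage sum, at 315 CPM in control, 61.2 in inv(3), 299 in K700E and 38.2 in double. The neutrophil sum was carried by S100a8 and S100a9: 4 of 7 neutrophil markers passed as higher and 1 as lower for inv(3) against control. For double against K700E 2 of 7 passed as higher, and Camp was at 59.1 CPM against 103. The 7 mast cell and basophil markers, none at 0, summed to 255 to 286 CPM in control, 68.6 to 81.8 in inv(3), 331 to 345 in K700E and 80.6 to 103 in double. For inv(3) against control 7 of 10 macrophage markers passed as lower and 1 as higher, and for double against K700E 10 of 10 as lower, while 6 and 5 of the 8 stem and progenitor markers passed as lower. The part of these differences in the length shifts was not tested.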

How the data were processed

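Poly(A)-selected, unstranded libraries of 12 samples were sequenced, per the labels' protocols. The authors deposited per-library gene tables in RSEM's format, with expected counts, TPM, and gene length and effective length in bases; per the submitters' processing notes the build was mm10 and bcl2fastq was used, and neither aligner nor RSEM version is named there. The deposited expected counts, rounded to integers, were tested in R 4.3.3 with edgeR 4.0.16 (quasi-likelihood, TMM, filterByExpr, 13755 genes, 4 groups in 1 model, Benjamini-Hochberg threshold 0.05), and log2 effective length of 3422 genes with limma 3.58.1 (trend, robust). Transcript models, loci and junction sequences came from GENCODE M21. The edgeR and limma fits were tested on simulated data for K700E against control. The genes and lists were chosen with earlier results of these data known. Named beyond the 7 genes was the gene nearest in length pattern to each, and for Tor1aip2 also the second nearest. Xist and some cell type markers were also named. So were at most 2 partners a list for each of K700E against control and double against inv(3), where they passed. No 2 libraries of a group agreed within sampling noise (chi-square per degree of freedom 8.19 or more). DESeq2 1.42.0, RLE scaling, other filters, the replicate number as a block, subsets of groups, effective length as offset and leaving out each library were tried.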

Additional observations from a re-analysis of the deposited data

How the results depend on the processing

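The length shifts of the 6 genes with Inv(3), on both backgrounds, kept their direction in every alternative that was run. So did the length differences of all 7 genes for K700E against control. Of the latter, Ece2 (0.011, SE 0.02), Mllt3 (0.007, SE 0.004) and Armc9 (0.022, SE 0.046) were near 0, with overlapping groups. The genes were chosen on these libraries, so a kept direction is a description only. Differences near 0 turned without single libraries for double against inv(3), in Armc9 (-0.015 to 0.077) and Tor1aip2 (-0.005 to 0.007, also -0.001 on the length column and after centring), and for the difference between backgrounds in Armc9, Ifnar2 and Psd3. On the length column, Ece2 was 0.35 for inv(3) against control and 0.496 for double against K700E, and Pnkd -0.167 and -0.196; without inv(3) library 2, Pnkd was -0.191 for inv(3) against control. The number of genes called was less stable than the shifts. For lengths, K700E against control had 3 calls on the length column, 2 after centring on single-transcript genes, 3 without the inv(3) group, 0 with the replicate number as a block and 0 with only the compared groups. Double against inv(3) had 0 with only the compared groups. Inv(3) against control had 20 on the length column and 21 after centring, and double against K700E had 56, 48 and, with only the compared groups, 10. Leaving out each library gave 0 to 3, 0 to 3, 7 to 19, 12 to 34 and, for the difference between backgrounds, 0 to 1, in the order K700E against control, double against inv(3), inv(3) against control and double against K700E.

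For counts, DESeq2 called 1866 genes for K700E against control and 622 for the difference between backgrounds, the replicate block 654 and 60, and the compared groups alone 1954 for double against inv(3). Leaving out each library gave 168 to 1649, 1566 to 3342, 4359 to 5564, 5506 to 7138 and 32 to 323 in the same order. K700E against control fell to 600, 214 and 560 without control library 1, 2 or 3 and to 168 without K700E library 2, and double against inv(3) to 1671 and 1566 without double library 1 or 3.

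Among count differences of the 7 genes, the directions that turned were of differences that passed in no alternative. Armc9 for K700E against control was 0.01 with RLE scaling, 0.01 by DESeq2, 0.032 at a mean of 5 CPM, 0 with the compared groups alone and -0.08 to 0.059 without single libraries. Tor1aip2 for double against inv(3) was -0.003 with RLE, -0.003 by DESeq2, -0.007 with the compared groups and -0.031 to 0.024 without single libraries. Pnkd for K700E against control was -0.057 per length and -0.069 to 0.126 without single libraries. Without single libraries, Psd3 for K700E against control was -0.073 to 0.03, Ifnar2 for inv(3) against control -0.041 to 0.09, Pnkd for double against inv(3) -0.1 to 0.011, Armc9 for double against K700E -0.101 to 0.031, and Pnkd for the difference between backgrounds -0.162 to 0.04. The cause was not tested.

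The replicate numbers did not pair the samples: of 18 pairs of libraries with the same number 4 had correlated deviations above 0.1 (r of -0.646 to 0.449), and 3 of 12 libraries correlated best with their own number. With that block, Tor1aip2 for inv(3) against control (adjusted p = 0.075), Psd3 for double against inv(3) (0.059) and double against K700E (0.069) and Pnkd for double against K700E (0.059) missed the threshold by edgeR, and Ifnar2 for double against inv(3) passed (0.039). Ifnar2 there also passed without inv(3) library 1 (0.027) or double library 2 (0.033), Pnkd for inv(3) against control without control library 1 (0.027), and Ece2 for the difference between backgrounds without inv(3) library 2 (0.039). Tor1aip2 for inv(3) against control missed it without a filter (0.052), at a mean of 5 CPM (0.062) and with the compared groups alone (0.053), and Psd3 for double against inv(3) with the compared groups alone (0.084) and for double against K700E without a filter (0.053). Calls by edgeR of Ece2 and Mllt3 in 3 comparisons each, and of Psd3 for inv(3) against control, held in every alternative except Ece2 per length.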
